A study of Mus musculus with 6 samples.

Results

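The Src, Syk and Tec families are the cytoplasmic tyrosine kinases that stand directly below antigen receptors. They are described here in BCR-ABL1-transformed mouse B cell precursors, with and without the ETS transcription factor Etv5. Of 9 kinase genes listed, 7 were found by their symbol in the platform's probe annotation, among 19938 genes named by a probe set of a single gene. They are Blk, Fyn and Fgr of the Src family, Syk and Zap70 of the Syk family, and Btk and Tec of the Tec family. Each had 1 probe set. Lyn and Lck were not analysed here. The members were chosen by name and not by their values, although results of these arrays were known when the list was made.

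In B cell precursors, Src family kinases phosphorylate the paired tyrosines in the tails of Cd79a and Cd79b, the signalling chains of the pre-B cell receptor. Syk docks on these tyrosines and phosphorylates the adaptor Blnk. Btk then joins the complex and activates phospholipase C gamma, which opens the calcium and diacylglycerol branches of the signal. Zap70 fills the place of Syk below the T cell receptor, and BCR-ABL1 is itself a tyrosine kinase, the fusion that marks Philadelphia chromosome-positive acute lymphoblastic leukemia.

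The arrays held total RNA of 6 samples, 3 labelled ETV5 WT and 3 labelled ETV5 KO. All 6 were from 129SvEv mice, and all were pre-B cells carrying BCR-ABL1, so both groups share the oncogene and no untransformed cells were compared. The comparison asks which transcripts differ in such cells when Etv5 is missing. The labels give no age and leave unstated whether the replicates were separate animals, separate cultures or repeats of 1 culture. The p-values therefore cover the spread among these 6 samples alone, and that spread may be technical. Which part of Etv5 the allele lacks is not given in the sources used here. The brighter Etv5 probe set gave 11.48, 11.52 and 11.46 in wild-type cells and 11.67, 11.88 and 11.73 in knockout cells (log2 signal), and the dimmer gave 9.30, 9.52 and 9.27 against 8.97, 8.91 and 8.92. The groups do not overlap in either probe set. In the platform's numbering, the brighter probe set lies between those of Prf1 and Vpreb3, both on chromosome 10. The dimmer lies between those of Vpreb1 and Trat1, both on chromosome 16, where Etv5 lies. Whether the brighter one reads Etv5 was not tested. The dimmer one passed as lower in the knockout (log2 change -0.43; limma adjusted p = 0.0467), and the brighter one was higher without passing (0.28; adjusted p = 0.13). Values are log2 signals, on which 1 unit is a 2-fold difference, and array medians lay between 7.79 and 7.84. Of the 19938 genes, 2.42% were higher and 2.01% lower in the knockout at an adjusted p under 0.05 (limma, Benjamini-Hochberg over all 35556 probe sets).

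Blk changed most among the 7 kinases. Syk and Zap70 also passed the test upward, each with a smaller change than Blk, and none passed downward. In all, 3 of 7 rose, 0 fell and 4 did not pass, against 4.43% of all genes passing in either direction. Before adjustment, limma gave a p under 0.05 to 4, of which 3 were higher and 1, Tec, lower, beside 13.4% of all genes. The median change of the 7 was 0.11, beside -0.0039 over all genes. The genotypes did not overlap in 6 of the 7 kinases, beside 20.5% of all genes. The knockout was above in 4 and below in 2, and each of these directions held in 10.2% of all genes. The call for Blk held in each fit that left out 1 sample, while Syk and Zap70 lost theirs in all 6 such fits, so that 1 member rose whichever sample was left out. The plot of signal by sample shows the values behind these counts.

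**Figure D1:**
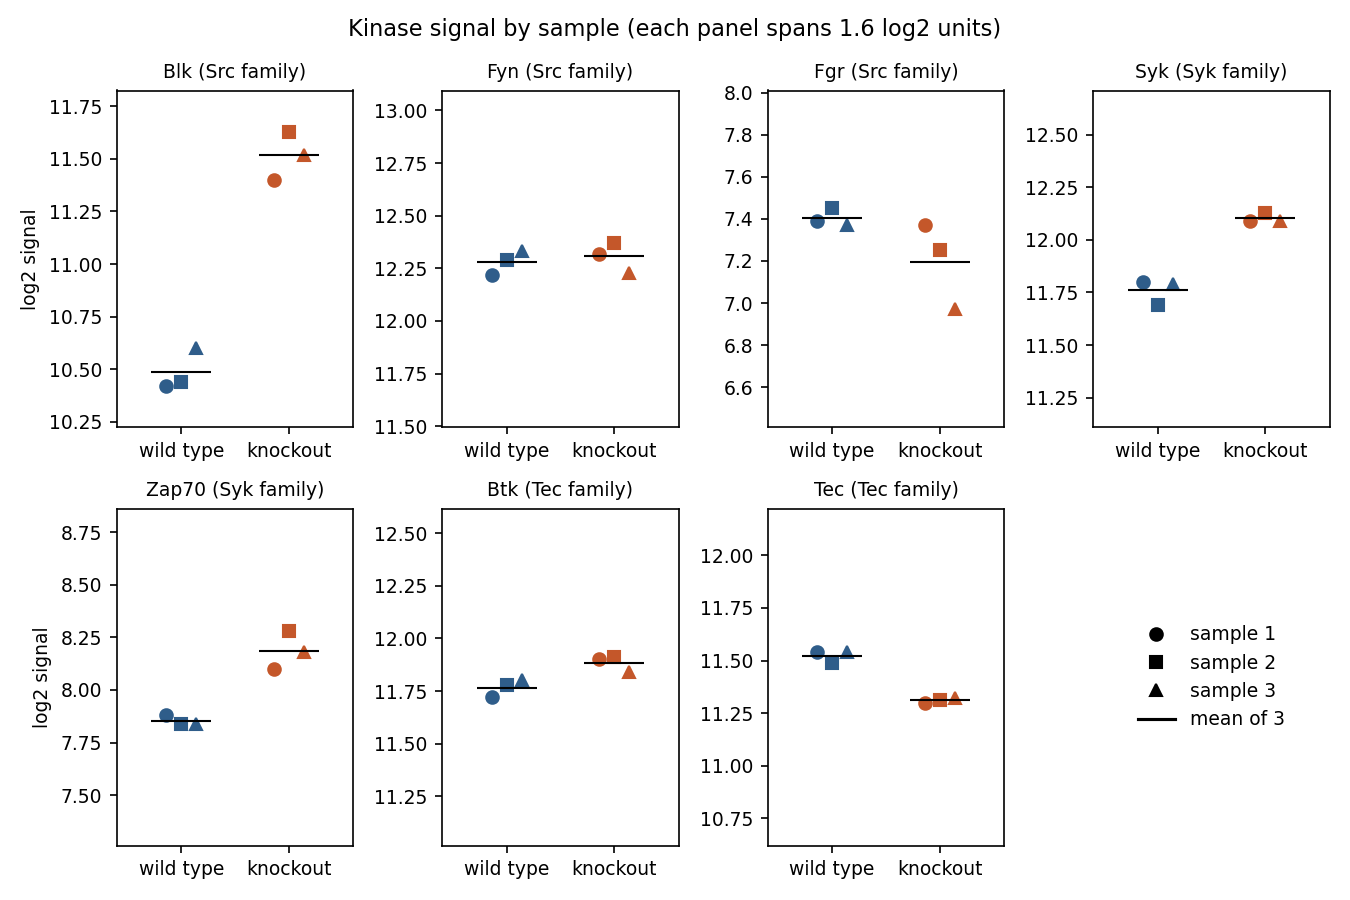
Log2 signal of the 7 kinases in each sample (vertical axis), with the mean of 3 as a line. Wild type is blue and knockout orange. Symbols mark the sample number, which no label pairs across genotypes. Blk is the one panel in which the groups stand 0.80 log2 units apart, while Fyn overlaps and Fgr is separated by 0.0072.

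Among the Src family members, Blk is a kinase found mainly in B lineage cells. Its log2 signal was 10.42, 10.44 and 10.60 in wild-type samples 1, 2 and 3 and 11.40, 11.63 and 11.52 in the knockout samples. Every knockout value lay above every wild-type value, with a gap of 0.80 between the groups, several times the spread within either. Means were 10.49 ± 0.097 and 11.52 ± 0.12 (SD, n = 3), so that Blk rose 2.04-fold (log2 change 1.03 ± 0.083, SE; 95% interval 0.83 to 1.23; limma adjusted p = 0.00203). With 1 sample left out the change stayed between 0.97 and 1.09, with adjusted p-values of 0.00597 to 0.0164. In bulk RNA a change in the number of expressing cells and a change in RNA per cell cannot be told apart, and this holds for every gene here.

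Fyn, a broadly expressed Src family kinase of lymphocytes, was the brightest of the 7 probe sets. Its log2 signal was 12.22, 12.29 and 12.33 in wild-type cells and 12.32, 12.37 and 12.23 in knockout cells. The groups overlapped. The log2 difference was 0.03 with a 95% interval of -0.12 to 0.17 (limma adjusted p = 0.976), so changes beyond 0.17 in either direction lie outside the interval.

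Fgr is a Src family kinase known mostly from neutrophils and macrophages. It gave the dimmest signal of the 7, with 7.39, 7.45 and 7.37 in wild-type cells and 7.37, 7.25 and 6.97 in knockout cells. All 6 values lay below the array medians, and the files hold no detection calls, so the signal was not shown to be above background. The knockout values were the lower ones by a gap of 0.0072, and knockout sample 3 was lowest. The log2 difference was -0.21 (95% interval -0.47 to 0.05; limma adjusted p = 0.596), and -0.10 without knockout sample 3.

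The remaining Src family genes measured did not pass. Src, the founding member, averaged 8.23 in wild-type cells and 8.18 in knockout cells, above the array medians. Yes1, its close relative, averaged 5.79 and 5.93, and Frk, an epithelial relative, 5.82 in both, well below those medians. The smallest of the 3 limma adjusted p-values was that of Yes1, whose difference was 0.14 (95% interval -0.11 to 0.38).

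Both members of the Syk family passed the test. Syk, the kinase that the pre-B cell receptor recruits, gave a bright signal of 11.80, 11.69 and 11.79 in wild-type cells and 12.09, 12.13 and 12.09 in knockout cells. The knockout samples were the higher ones without overlap, and they lay within 0.04 of each other. The log2 change was 0.34 ± 0.054 (SE; 95% interval 0.21 to 0.47; limma adjusted p = 0.0265), or 1.27-fold. Each fit without 1 sample kept the size, between 0.31 and 0.36, but raised the adjusted p to between 0.0747 and 0.117.

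Zap70, the T cell counterpart of Syk, gave 7.88, 7.84 and 7.84 in wild-type cells and 8.10, 8.28 and 8.18 in knockout cells. The groups did not overlap, and wild-type values lay at or just above the array medians of 7.79 to 7.84, so a signal not shown to be above background moved upward. The log2 change was 0.33 ± 0.061 (SE; 95% interval 0.18 to 0.48; limma adjusted p = 0.047), or 1.26-fold. Without 1 sample it ran from 0.29 to 0.37 with adjusted p-values of 0.053 to 0.183. With a variance trend and robust settings in limma it no longer passed (adjusted p = 0.0701). The intervals of Syk and Zap70 nearly coincide, and both end below the lower bound of Blk at 0.83; the difference between members was not itself tested.

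The 250 bases before the outermost annotated start of Syk and Zap70 are shown because both genes passed upward. Blk also passed upward, but no sequence of Blk is printed. Etv5 belongs to the ETS factors, which bind DNA around the core GGAA. An inner Syk window is printed too, while the inner Zap70 windows are counted below but not printed. The printed windows are therefore not an even choice. Capitals mark CCGGAA or GAGGAA on either strand, the core with bases before it that different ETS factors are known to favour; these motifs do not overlap each other here. The sequences are from RefSeq, build GRCm38.p6, on the plus strand: chr13:52583187-52583436 for the outer Syk start, chr13:52596632-52596881 for an inner Syk start and chr1:36761548-36761797 for Zap70.
Syk, outer start: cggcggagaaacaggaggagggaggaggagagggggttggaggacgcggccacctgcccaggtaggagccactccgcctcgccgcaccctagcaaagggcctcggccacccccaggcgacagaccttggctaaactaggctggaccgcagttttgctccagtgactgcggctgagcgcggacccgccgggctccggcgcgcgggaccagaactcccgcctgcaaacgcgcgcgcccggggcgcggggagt
Syk, inner start: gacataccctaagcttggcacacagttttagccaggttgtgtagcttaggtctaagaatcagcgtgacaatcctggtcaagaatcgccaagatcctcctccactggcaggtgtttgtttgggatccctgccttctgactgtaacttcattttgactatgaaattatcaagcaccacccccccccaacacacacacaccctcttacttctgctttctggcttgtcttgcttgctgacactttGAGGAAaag
Zap70, outer start: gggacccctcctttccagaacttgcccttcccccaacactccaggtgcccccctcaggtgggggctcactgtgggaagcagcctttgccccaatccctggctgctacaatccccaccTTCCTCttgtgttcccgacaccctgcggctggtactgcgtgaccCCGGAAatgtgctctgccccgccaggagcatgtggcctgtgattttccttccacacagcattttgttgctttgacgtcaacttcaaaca
The Zap70 window held CCGGAA beginning 89 bases before the start, and GAGGAA on the minus strand, read as TTCCTC, beginning 133 bases before it. The inner Syk window held GAGGAA 9 bases before the start, and the outer Syk window held neither motif. Of 9 windows of the 6 measured members other than Blk, 2 held CCGGAA (Zap70 and Fgr) and 3 held GAGGAA (Zap70 in 2 windows, Syk in 1). Among all 32851 windows of this length, 12% held CCGGAA and 23.3% held GAGGAA. The windows of Fyn, Btk and Tec held neither. A match is a run of letters and says nothing about binding.

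The Tec family members differed in direction without passing. Btk, the kinase whose loss blocks B cell development in human agammaglobulinemia, gave 11.72, 11.78 and 11.80 in wild-type cells and 11.90, 11.91 and 11.84 in knockout cells. The knockout values were all higher, by a gap of only 0.04. The log2 difference was 0.11 (95% interval -0.01 to 0.24; limma adjusted p = 0.514).

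Tec, the kinase that gave the family its name and is expressed across blood lineages, gave 11.54, 11.49 and 11.54 in wild-type cells and 11.30, 11.31 and 11.32 in knockout cells. It is the tightest of the 7 within the knockout (SD 0.0084), and every knockout value lay below every wild-type value. The log2 difference was -0.21 ± 0.046 (SE; 95% interval -0.33 to -0.10), with a limma adjusted p of 0.0819. Tec passed as lower in 3 other fits. These were without the dimmest 40% of probe sets (limma adjusted p = 0.029), with a variance trend and robust settings (0.016), and with probe sets averaged per gene (0.0383). Tec has 1 probe set, so averaging left its values as they were, and only the fit and adjustment over genes differed. That Tec passes at a threshold of 0.10 follows from the 0.0819 of the main fit. It did not pass in any fit that left out 1 sample (0.177 to 0.305). Nor did Tec pass with the sample number as a block (limma adjusted p = 0.29) or with array weights (0.0512). The same held with quantile normalization (0.0636) and cyclic loess normalization (0.0628).

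Txk, a T cell kinase of the same family, is the next gene to Tec in gene order on chromosome 5. It averaged 6.64 in wild-type cells and 6.65 in knockout cells, a difference of 0.0025 (limma adjusted p = 0.998). Slain2, the neighbour on the other side, differed by -0.06 (adjusted p = 0.841). Bmx, the Tec family kinase of myeloid and endothelial cells, averaged 5.52 and 5.55. Thus 0 of 5 other Src and Tec family genes measured passed limma, and 0 had an unadjusted p under 0.05.

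**Figure D2:**
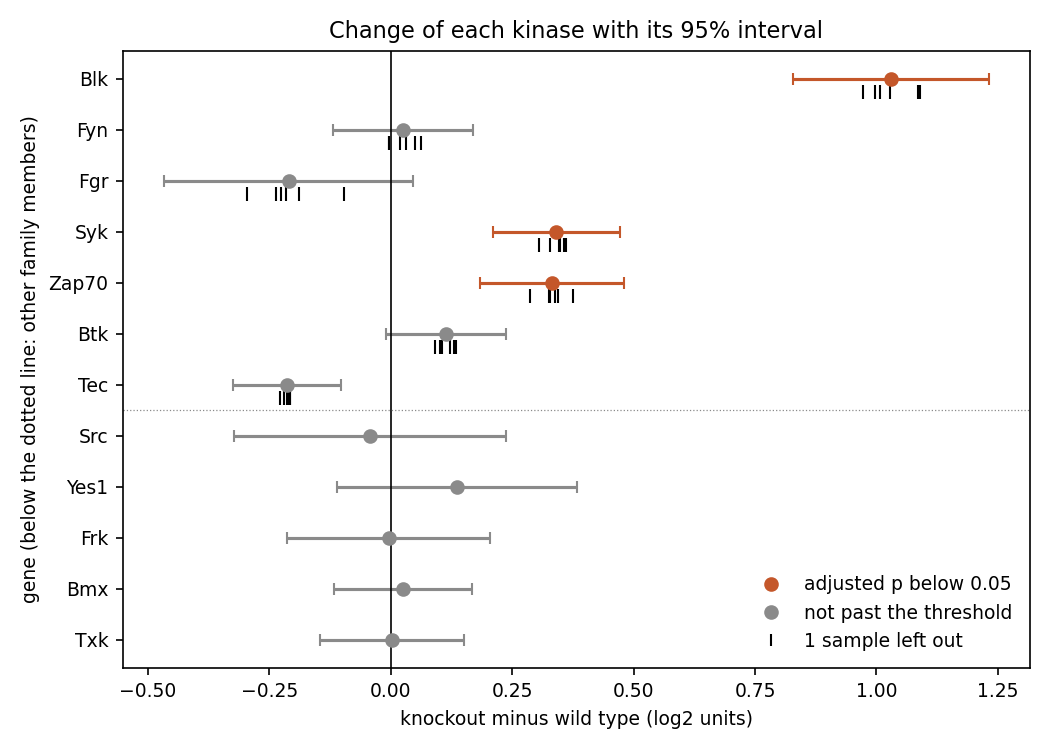
Log2 change (knockout minus wild type, horizontal axis) of the 7 kinases and 5 further family members, with limma's 95% interval. Black ticks, drawn for the 7 kinases only, are the 6 fits that left out 1 sample. The interval of Blk, 0.83 to 1.23, lies to the right of all others, and those of Syk and Zap70 lie side by side above 0.

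The 7 kinase genes lie on 7 chromosomes. Blk is on chromosome 14, Syk on 13, Zap70 on 1, Fyn on 10, Fgr on 4, Btk on X and Tec on 5. The nearest protein-coding neighbours of Blk that were measured, Gata4 and Fam167a, differed by 0.01 and -0.19 (limma adjusted p = 0.996 and 0.429). Those of Syk, Diras2 and Auh, differed by 0.02 and 0.08 (adjusted p = 0.986 and 0.841). Beside Zap70, Tmem131 differed by -0.04 (limma adjusted p = 0.903), and the nearest gene on the other side was not measured. None of these genes passed the test beside their risen neighbours.

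The genes whose 6 values ran closest to each risen kinase were found by the smallest sum of squared differences after subtracting each gene's wild-type mean. For Blk they were Ephx1, an epoxide hydrolase, Lta, the cytokine lymphotoxin alpha, and Sp100, a nuclear body protein, with log2 changes of 1.01, 0.97 and 1.07. For Syk they were Rbpms2, an RNA-binding protein, Fbp1, an enzyme of gluconeogenesis, and the transcript A630001G21Rik (0.33, 0.35 and 0.32). For Zap70 they were Vwa8, the adhesion molecule gene Kirrel and Bcl2l11, which encodes the death protein BIM (0.35, 0.34 and 0.33). The sums ran from 0.00148 to 0.0173 over the same 6 arrays. Because these genes were picked for values close to those of a risen kinase, their changes follow from the choice and are given as a description.

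Of 20 genes known to restrain these kinases, 2 rose, 2 fell and 16 did not pass, with a median change of 0.05. Over all genes, 4.43% passed in either direction, and 13.4% had an unadjusted limma p under 0.05. These shares stand beside each list count from here on. The related genes Ubash3a and Ubash3b, which encode the phosphatases that act on Syk and Zap70, moved in opposite directions. Ubash3a gave 9.67, 9.59 and 9.67 in wild-type cells and 8.86, 9.15 and 8.99 in knockout cells. Ubash3b gave 8.29, 8.18 and 8.16 in wild-type cells and 8.85, 9.08 and 8.92 in knockout cells. In both genes the groups did not overlap. Their log2 changes were -0.64 ± 0.083 and 0.74 ± 0.078 (SE; limma adjusted p = 0.0122 and 0.0054).

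Sla2, an adaptor that brings the ubiquitin ligase Cbl to antigen receptors, was the most changed of the 20. It gave 10.06, 10.11 and 10.15 in wild-type cells and 8.94, 9.15 and 8.84 in knockout cells. All 3 knockout values were lower, and the fitted log2 change was -1.13 ± 0.088 (SE; by limma, adjusted p = 0.00186). Ptpn6, the phosphatase SHP-1, rose by 0.29 (adjusted p = 0.0437). Csk, the kinase that places the inhibitory phosphate on Src family members, was named after its value was seen: it gave 11.76, 11.70 and 11.78 against 11.99, 12.13 and 12.04, a log2 difference of 0.30 that did not pass (adjusted p = 0.056). Leaving out 1 sample left 1 risen gene of the list in each fit, Ubash3b, as Ptpn6 lost its call in all 6; Sla2 kept its call throughout and Ubash3a lost it in 3. Those 3 fits lacked sample 1 or 3 of the wild type or sample 3 of the knockout, and left 1 fallen gene.

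None of 5 further regulators passed limma: the receptor phosphatases Ptprc, Ptpra and Ptprj, the Btk inhibitor Sh3bp5 and the Src family partner Unc119. At an unadjusted p under 0.05, 2 were higher. Ptprc, which encodes CD45 and strips the inhibitory phosphate from Src family kinases, had the smallest p and a log2 difference of 0.16 (95% interval from 0.05 to 0.28, adjusted p = 0.198).

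Above the kinases, 0 of 11 genes of the pre-B cell receptor and its coreceptors rose, 3 fell and 8 did not pass. At an unadjusted limma p under 0.05, 1 was higher and 3 were lower. The mu heavy chain gene Ighm, whose product the surrogate light chain pairs with, gave 11.63, 11.77 and 12.07 in wild-type cells and 8.57, 8.48 and 8.53 in knockout cells. It differed by more than any kinase and fell by 3.30 ± 0.12 (log2, SE; by limma, adjusted p = 0.000153); its dimmer probe sets differed by 0.12 and -0.28 without passing. Ifitm3, an interferon-induced membrane protein, fell by 1.25 (adjusted p = 0.0157) and the surrogate light chain gene Vpreb2 fell by 0.32 (adjusted p = 0.045). Cd79a and Cd79b, which carry the tyrosines that Blk and Syk act on, were named after their values were seen and differed by 0.13 each (adjusted p = 0.52 and 0.401). With 1 sample left out, Ighm kept its call throughout, Ifitm3 lost it in 4 fits (without any 1 of the wild-type samples or without knockout sample 2) and Vpreb2 in all 6. The number fallen was 1 in those 4 fits and 2 in the others.

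Inhibitory coreceptors, which Src family kinases phosphorylate and which then recruit phosphatases, showed 3 risen, 1 fallen and 6 not passing of 10. Before adjustment, 4 were higher and 1 lower at a limma p under 0.05. Siglecg, a sialic acid receptor of B cells, gave 8.60, 8.72 and 8.68 in wild-type cells and 10.48, 10.73 and 10.65 in knockout cells. This 3.86-fold rise (log2 change 1.95 ± 0.079, SE; limma adjusted p = 0.00019) exceeded that of Blk in size. Fcgr2b, the inhibitory Fc receptor, rose by 0.60 (adjusted p = 0.00553) and the adhesion receptor gene Pecam1 by 0.46 (adjusted p = 0.00811). Cd5, which dampens antigen receptor signals, fell by 0.72 (adjusted p = 0.0156). Siglecg and Fcgr2b kept their calls in all 6 fits that left out 1 sample; Pecam1 lost its call in 1, without wild-type sample 1, and Cd5 in 4, without any 1 of the wild-type samples or without knockout sample 3.

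Below the kinases, 5 of 27 adaptors and substrates rose, 1 fell and 21 did not pass, and the median change was -0.01. Unadjusted, 7 were higher and 7 lower at a limma p under 0.05. Plcg1, the phospholipase C gamma form best known from T cells, gave 10.65, 10.63 and 10.78 in wild-type cells and 11.41, 11.50 and 11.45 in knockout cells. It rose by 0.76 ± 0.061 (SE; limma adjusted p = 0.002). Plcg2, the form that Btk activates in B cells, was named after its value was seen: its log2 difference was -0.17 (95% interval -0.29 to -0.05; adjusted p = 0.209).

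The other 4 risen genes of this list were Bank1, a B cell scaffold (0.65, limma adjusted p = 0.0125), Sh2d3c, an SH2 domain adaptor (0.56, 0.0253), Pik3ap1, an adaptor of PI3 kinase (0.48, 0.0248), and Gab1, a docking protein (0.41, 0.0252). Was, the actin regulator WASP, fell by 0.37 (adjusted p = 0.0349). Blnk, the central substrate of Syk, differed by -0.0087 (95% interval -0.13 to 0.11; adjusted p = 0.99) and was named after its value was seen. Plcg1 was the gene of this list that kept its call in every fit without 1 sample, and the number risen was 1 without wild-type sample 1, knockout sample 2 or knockout sample 3, 2 without wild-type sample 2, and 4 in the remaining fits. The Was gene kept its call in 1 fit, that without knockout sample 2. Of 13 genes listed downstream of Btk, 1 rose and 12 did not pass. The risen gene, Rasgrp1, a RAS activator that responds to diacylglycerol, changed by 0.55 ± 0.052 (SE, limma adjusted p = 0.00357). This call held in all 6 fits without 1 sample. At an unadjusted limma p under 0.05, 3 of the 13 were higher and 0 lower.

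**Figure D3:**
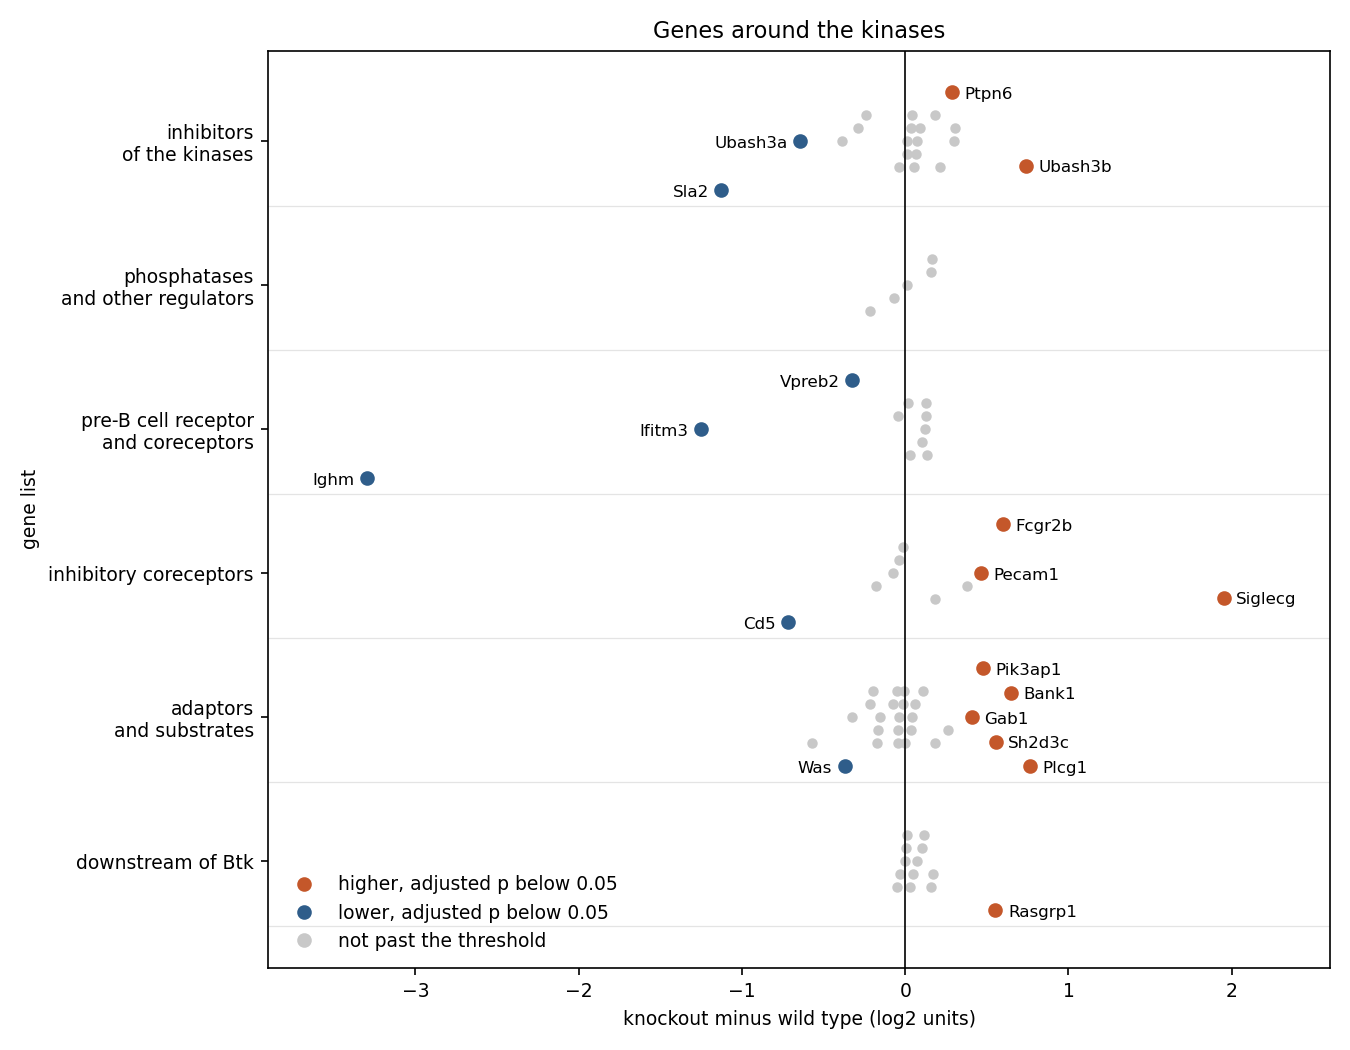
Log2 change (knockout minus wild type, horizontal axis) of each measured gene in 6 lists around the kinases, 1 point per gene, coloured where the limma adjusted p was below 0.05. Ighm (-3.30) and Siglecg (1.95) lie at the ends, and Ubash3a and Ubash3b lie on opposite sides of 0 in the top row.

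The cell type label was set beside marker genes, since Zap70 and Fgr are better known from T cells and myeloid cells. Of 13 B cell precursor markers, all had a mean above the array medians (9.31 to 14.27), and the mean over the list lay between 12.33 and 12.38 in wild-type cells and between 12.40 and 12.50 in the knockout. Bst1 and Pax5 rose by 0.81 and 0.43 and Dntt fell by 0.37 (limma adjusted p = 0.00107, 0.0127 and 0.0132); Bst1 kept its call in all 6 fits without 1 sample, Pax5 lost its call in 3 (without sample 1 or 2 of the wild type or sample 3 of the knockout), and Dntt in 4 (those 3 and without wild-type sample 3). Of 16 T cell markers none passed with all samples, and 1 passed as lower without knockout sample 2. Over all 16 the list mean was 7.34 to 7.41 in wild-type cells and 7.24 to 7.33 in knockout cells, and 5 were lower at an unadjusted p under 0.05. Lcp2, an adaptor below Zap70, had the smallest p, with a difference of -0.39 (limma adjusted p = 0.0626). Cd3e and Cd247, chains of the T cell receptor complex on which Zap70 docks, were named after their values were seen. Cd3e gave 7.68 and 7.71 on average and Cd247 7.75 and 7.68, close to the array medians in both genotypes. Gene means over the 16 markers ran from 4.96 to 10.79. Lat, also named after its value was seen, averaged 10.89 in wild-type cells and 10.70 in knockout cells. Lcp2 averaged 10.51 and 10.12. The part of T cell markers in the Zap70 values was not tested.

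Of 15 myeloid markers, Ly6g and Itgam rose by 1.14 and 0.60 (limma adjusted p = 0.0156 and 0.0235) and 13 did not pass. Both signals were dim, with knockout means of 7.69 and 7.83, and the list mean ranged from 6.84 to 6.99 in wild-type cells and from 6.93 to 7.05 in the knockout. Leaving out 1 sample gave 0 risen without wild-type sample 1 or knockout sample 2, 2 without wild-type sample 2, and 1 in the remaining fits. With all samples, 3 myeloid markers were higher and 0 lower at an unadjusted limma p under 0.05. The part of the myeloid markers in the kinase values was not tested. None of 8 NK cell markers passed, 1 had an unadjusted p under 0.05, and Ncr1, whose p was smallest, differed by 0.34 (adjusted p = 0.424). None of 5 erythroid and megakaryocyte markers or 9 stromal and endothelial markers passed (smallest p Epor, -0.15, and Kdr, -0.22; adjusted p = 0.477 and 0.48), nor did any have an unadjusted p under 0.05. Of 8 mature B cell markers, Cxcr5 fell by 2.79 (limma adjusted p = 0.000511) and 7 did not pass. Without knockout sample 1, another passed as higher. Before adjustment, 3 were higher and 2 lower at a limma p under 0.05.

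**Figure D4:**
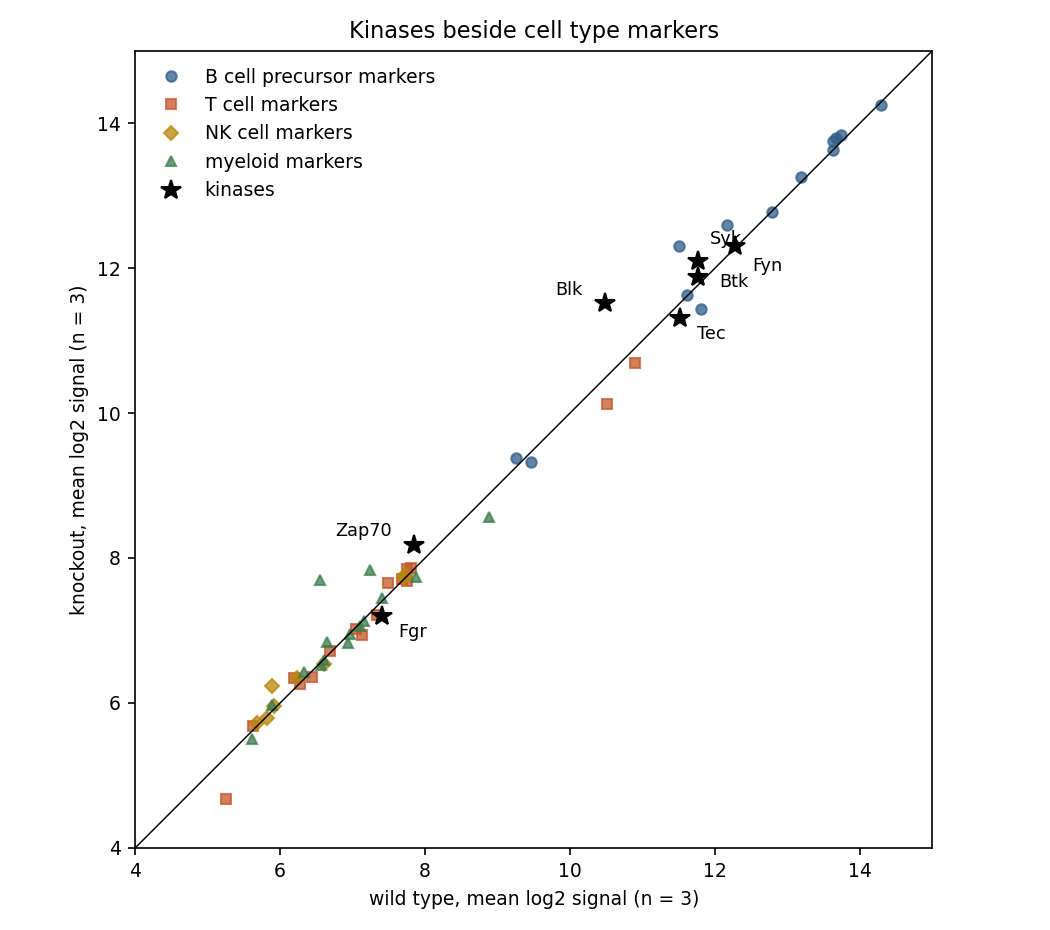
Mean log2 signal in the wild type (horizontal axis) against the knockout (vertical axis), n = 3 each, for the 7 kinases (stars) and markers of 4 cell types; the line marks equal signal. Fgr (7.41 and 7.19) lies among the dim T cell, NK cell and myeloid markers, and Zap70 (7.85 and 8.19) at their upper edge. In the knockout, Zap70 was above every NK cell marker. It was also above the T cell and myeloid markers other than Lat, Lcp2 and Lyz2. The other 5 kinases lie in the range of the B cell precursor markers.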

How the data were processed

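Total RNA of 6 samples was, per the labels' protocols, labelled with biotin and measured on Affymetrix arrays of 1 colour. The file deposited by the authors gives log2 values, from 2.58 to 14.7, for 35556 probe sets. The submitters' processing notes name RMA, which compresses differences of dim probe sets, and Partek 6.5. The settings, detection calls and any test by the authors were not given in the sources used here. Groups follow the sample titles.

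Names came from the platform annotation (21789 probe sets with 1 gene symbol, 1621 with several, 12146 with none listed), and each gene was represented by its brightest probe set over the 6 arrays. The fit used limma 3.58.1 in R 4.3.3 (lmFit, eBayes, two-sided, no covariate, no filter), with Benjamini-Hochberg adjustment over all probe sets and a threshold of 0.05. The fit was also run on simulated data with independent noise. That run does not cover noise shared between samples, and its outcome is not given here. An exact permutation test of 3 against 3 cannot go below p = 0.10 and was not used. Precision is limited by the number of arrays.

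The members and lists were chosen with earlier results of these data known, so lists are described by counts and medians, with no set test; of 175 genes listed, 164 were measured. The genes to name were the members, their relatives, up to 6 genes per list that passed (otherwise the one with the smallest p), and the 3 genes closest to each risen member; exceptions are marked. The list of further regulators was first headed activators and was renamed after its values were seen. Gene order, chromosomes and promoter windows came from RefSeq, GRCm38.p6. Alternatives were a block for the sample number, a filter on the dimmest 40% of probe sets, quantile or cyclic loess normalization, a variance trend together with robust settings, weights per array, each sample left out, averaging the probe sets of a gene, and a threshold of 0.10.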

Additional observations from a re-analysis of the deposited data

How the results depend on the processing

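Of the 3 risen kinases, Blk kept its call in every setting tried. Syk and Zap70 lost theirs in all 6 fits that left out 1 sample and with the sample number as a block (adjusted p = 0.143 and 0.173). The number risen and the number changed were therefore 1 in each fit without 1 sample, where 0 fell and between 565 and 857 probe sets changed in all, against 1095 with all samples and 1294 to 1452 with the filter, another normalization, a variance trend or array weights. The lowest counts, 565, 620 and 586, were those without wild-type sample 1, wild-type sample 2 and knockout sample 3. Without the dimmest probe sets, with a variance trend and robust settings, with averaged probe sets per gene and at a threshold of 0.10, 1 member fell, Tec. Fyn ran from -0.0046 to 0.0615 without 1 sample, with its sign turned in 2 of these fits; the cause was not tested. The list counts without 1 sample were added after seeing the data.

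Both genotypes use sample numbers 1 to 3, and no label ties a number to a shared animal or day. Same-numbered samples deviated from their group means with correlations of -0.12, 0.016 and 0.26, and differently numbered ones with -0.349 to 0.311. With 3 samples per group, such correlations cannot decide whether samples were paired. The main fit treated none as paired because no label states a pairing. With the replicate block, 1 member rose, 1 changed in all and 544 probe sets changed. Among the genes named around the kinases, Ptpn6, Ubash3a, Vpreb2, Pecam1, Pik3ap1, Gab1, Sh2d3c, Was, Pax5 and Dntt did not pass with this block (adjusted p from 0.0639 for Pecam1 to 0.184 for Vpreb2).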
